A study of Mus musculus with 4 samples.

Results

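Receptors for 4 kinds of signal that reach bone marrow stroma were examined in sorted bone marrow mesenchymal stem cells (MSCs): the parathyroid hormone receptor Pth1r, the beta-adrenergic receptors Adrb1 and Adrb3, the prostaglandin E2 receptors Ptger1, Ptger2, Ptger3 and Ptger4, and the sphingosine-1-phosphate (S1P) receptors S1pr1 and S1pr3. They were taken from the deposited table by gene symbol, and all 9 were found among its 56980 genes. The samples were 1 group of 4 mice, all male, wild-type, with no treatment named, 14 weeks old and of C57BL/6J background, a colony that the labels describe as 30 years inbred in-house. Each mouse gave 1 RNA-seq library, made from 100 cells that carried CD51 and PDGFRa on their surface and lacked CD45, Ter119, CD31 and Sca1. The table holds no other group, so each level is a description of this population and is read against the spread between the 4 mice.

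All 9 are membrane receptors that act through heterotrimeric G proteins. Pth1r, the receptor of parathyroid hormone and of the related peptide Pthlh, raises cyclic AMP through Gs and calcium through Gq, and is best known in osteoblasts and their precursors. Noradrenaline released by sympathetic nerves acts on the adrenergic receptors, prostaglandin E2 on the 4 Ptger receptors, which differ in the G protein they engage, and S1P, a lipid abundant in blood, on the S1pr receptors. Signals through these families are known to act on bone formation and on the stromal cells that retain blood stem cells in the marrow.

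The libraries held between 22738604 and 43545349 counts on genes, with at least 1 count on between 16109 and 18907 genes. Levels are given as TPM, a count per base of merged exon that is scaled to a sum of 1000000 in each library, so that genes of unequal length can be compared. The sort was checked against its own antigens. Ptprc, which encodes CD45, and Pecam1, which encodes CD31, stayed at or below 0.264 TPM in each mouse, while Itgav, which encodes CD51, ran from 12.9 to 18.1 TPM and Pdgfra from 30.7 to 48.2 TPM. Ly6a, which encodes Sca1, stood at 0.0472, 8.95, 0 and 11.6 TPM in mice 1, 2, 3 and 4, so that mice 2 and 4 held RNA of an antigen selected against. No count in any mouse was found for the macrophage markers Adgre1, Csf1r and C1qa or the T and B cell markers Cd3e and Ms4a1. The endothelial markers Cdh5 and Kdr and the smooth muscle marker Acta2 had none either. Other markers on the same lists had counts in some mice: Rgs5, a pericyte gene, had 0, 1470, 0 and 138, Cspg4 had 621, 74, 428 and 924, Myh11 had 92 in mouse 4, C1qb and Cd68 had 176 and 144 in mouse 3, Cd79a had 22 in mouse 4, and Tek had 58 and 42 in mice 2 and 4. Mrc1, a macrophage marker, had 4, 18, 10 and 41 counts, and Gp9, a megakaryocyte marker, had 122 in mouse 1. The pericyte and smooth muscle markers summed to 2.96, 29.6, 2.08 and 11.6 TPM. The neutrophil markers summed to 30.7, 19.7, 4.09 and 7.84 TPM. The 6 red cell markers summed to 4980.4, 35.0, 1708 and 358 TPM. Bone markers were high, with Bglap, the osteocalcin gene, between 55668 and 156730 TPM, and the 3 other osteoblast markers Ibsp, Sp7 and Alpl summing to between 11294 and 22124 TPM. The stromal niche markers (Cxcl12, Lepr, Prrx1, Nes, Foxc1, Ebf3) summed to between 1052 and 4534 TPM.

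Of the 9 receptors, 4 had a median TPM above 1 over the 4 mice: Pth1r, S1pr3, S1pr1 and Ptger4. Over all 52125 genes with a length, 22.9% passed that cutoff, and 44.2% of the protein-coding genes did. Above 1 TPM in each of the 4 mice stood 3 receptors, Pth1r, S1pr3 and S1pr1, where 15.4% of all genes and 30.1% of protein-coding genes did so. The other 5 receptors had fewer than 3 counts in every mouse, as did 60.6% of all genes and 37.3% of protein-coding genes. At least 10 counts in each mouse were again reached by 3 receptors, and by 35.2% of protein-coding genes. The plot of receptor levels by mouse shows the 3 bands.

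**Figure D1:**
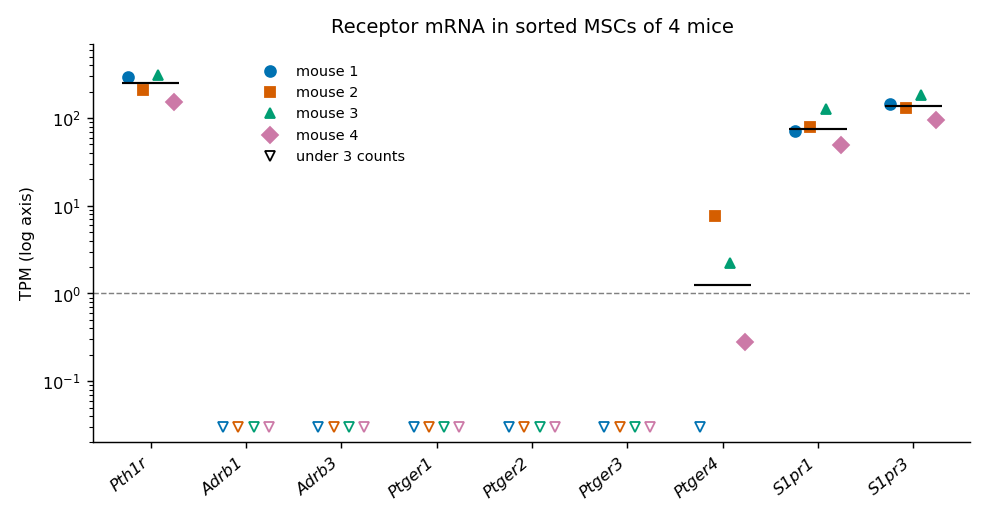
TPM of the 9 receptors in each of the 4 mice (log axis). Filled symbols are mice with at least 3 counts, open triangles stand for fewer than 3 counts and are drawn at an arbitrary low position, black bars are medians over mice, and the dashed line is the cutoff of 1 TPM. Pth1r, S1pr3 and S1pr1 lay between 49.5 and 314 TPM in each mouse, Ptger4 ran from 0 to 7.56 TPM, and the other 5 were under 3 counts throughout.

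Pth1r, which lies on chr9:110722085-110747145 (GRCm38, minus strand), was the highest of the 9. It had 14996, 6820, 15867 and 4554 counts in mice 1, 2, 3 and 4, which gave 291, 209.6, 314 and 151 TPM. Mice 1 and 3 were thus the high pair and mouse 4 the low one, and the mean was 241 ± 75.3 TPM (SD, n = 4 mice). In bulk RNA, fewer cells of a type and less RNA per cell cannot be told apart, here and for the other receptors. Counting error was a small part of this spread, since the 4554 counts of mouse 4 have a 95% exact Poisson interval of 4423 to 4688, and such intervals cover counting error only. Its median of 250.5 TPM exceeded that of 99.2% of all 52125 genes that have a length. A band of 95 exonic bases, 3.25% of the gene's, is shared with Myl3 on the opposite strand, and Myl3 itself had between 0 and 341 counts.

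RefSeq gives Pth1r 3 transcription starts, and gene counts do not say which of them was used. The 250 bases before the first and the third start (GRCm38.p6) are shown because Pth1r is the most abundant receptor and these windows differ in composition. Capitals mark TGACG, the short form of the cyclic AMP response element, in the first window, where it is read on the opposite strand as CGTCA, and GGGCGG, the GC box, on either strand in the third.
Pth1r start 1, chr9:110747146-110747395, minus strand: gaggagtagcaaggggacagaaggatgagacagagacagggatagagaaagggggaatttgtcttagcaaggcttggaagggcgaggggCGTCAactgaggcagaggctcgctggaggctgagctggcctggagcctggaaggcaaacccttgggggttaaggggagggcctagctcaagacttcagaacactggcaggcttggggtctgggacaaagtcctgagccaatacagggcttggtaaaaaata
Pth1r start 3, chr9:110742611-110742860, minus strand: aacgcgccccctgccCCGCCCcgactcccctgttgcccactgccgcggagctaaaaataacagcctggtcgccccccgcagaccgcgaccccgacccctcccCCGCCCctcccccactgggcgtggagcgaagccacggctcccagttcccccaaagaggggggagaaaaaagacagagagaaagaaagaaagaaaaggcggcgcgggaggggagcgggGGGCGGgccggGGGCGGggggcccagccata
Composition and motifs were taken over windows of 300 bases, which add the 50 bases after the start that are not printed. In the first window 54.3% of bases were G or C, close to the median of 52.7% over 32851 promoter windows, and it held 5 CG pairs and 1 short form at position -161. In the third window 69.3% were G or C, more than in 89.5% of promoter windows, with 27 CG pairs and 4 GC boxes. The short form on either strand was found in 20.8% of all windows and the GC box in 35.7%. The whole element TGACGTCA, which contains the short form, was found in 1.79% of windows and in none of the 8 windows of the receptors. Windows were available for 6 of the 9 receptors: Pth1r, Adrb1, Ptger2, Ptger3, Ptger4 and S1pr3. The windows of Ptger4 (67.0% G or C, 4 GC boxes) and S1pr3 lie before detected genes, and those of Adrb1 (72.3%, 1 GC box and 1 short form) and Ptger3 (64.0%, 3 GC boxes) before genes under 3 counts, so that windows rich in G and C occurred in both. The Ptger2 window, with 37.7% G or C and none of these motifs, was poorer in G and C than all but 6.63% of windows. A match is a description of letters, not a site of binding. The GC box was added to the search after the windows had been seen.

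S1pr3 stood second. This receptor, which couples to Gi, Gq and G12/13 proteins, lies on chr13:51408639-51422797 (GRCm38, plus strand) and had 11458, 6415, 14322 and 4444 counts. Its levels of 146, 129, 186 and 96.4 TPM were highest in mouse 3 and lowest in mouse 4, with a mean of 139 ± 37.2 TPM (SD, n = 4 mice). S1pr1, a receptor coupled to Gi and known for guiding lymphocytes and for its role in vessels, lies on chr3:115710433-115715072 (minus strand) and had 3862, 2673, 6728 and 1558 counts. This gave 72.1, 78.9, 128 and 49.5 TPM, again highest in mouse 3 and lowest in mouse 4, with a mean of 82.1 ± 33.0 TPM (SD, n = 4 mice). Endothelial cells are known to be rich in S1pr1. The 6 endothelial markers summed to 0.135, 1.28, 0.0465 and 1.10 TPM. Of these markers, 4 had fewer than 3 counts in every mouse, and Cdh5 and Kdr were at 0. The part of endothelial cells in the level of S1pr1 was not tested.

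The coding sequences of S1pr1 and S1pr3 were compared because a count is only as good as the separation of like genes. Over 1084 aligned bases they were 66.1% identical, and no identical run was longer than 14 bases. The 90-base stretch in which they are most alike is printed in coding sense (GENCODE M21, GRCm38). Capitals mark the 23 bases that differ, which leaves 67 identical, or 74.4%.
S1pr1, coding bases 359 to 448, chr3:115712496-115712585, minus strand: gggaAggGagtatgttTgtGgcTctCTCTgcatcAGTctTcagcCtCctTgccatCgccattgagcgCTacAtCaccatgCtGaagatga
S1pr3, coding bases 344 to 433, chr13:51419128-51419217, plus strand: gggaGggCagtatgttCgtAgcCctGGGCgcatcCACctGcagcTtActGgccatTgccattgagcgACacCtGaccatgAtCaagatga
A search of all annotated transcripts found no copy of either gene at 95% identity over 100 bases or more. The window before the S1pr3 start is shown for comparison with those of Pth1r. It held 59.0% G or C, 14 CG pairs and 1 GC box (capitals), at position -20.
S1pr3, chr13:51408368-51408617, plus strand: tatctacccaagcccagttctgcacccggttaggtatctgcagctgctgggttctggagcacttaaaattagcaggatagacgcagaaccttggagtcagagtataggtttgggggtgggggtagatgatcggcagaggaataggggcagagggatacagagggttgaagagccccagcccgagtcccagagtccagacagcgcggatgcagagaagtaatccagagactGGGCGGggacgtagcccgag

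Outside the 9, 16 further receptors of the same families were counted, of which 2 had a median TPM above 1 (Ptgfr and S1pr2) and 11 were under 3 counts in every mouse. Pth2r, the second receptor for peptides of the parathyroid hormone family, had no count in any mouse. Of the 3 other S1P receptors, S1pr4 and S1pr5 had no count in any mouse. S1pr2, which signals mainly through G12/13, was present at a lower level than both receptors above. Its 489, 683, 761 and 252 counts gave 3.49, 7.70, 5.53 and 3.06 TPM. It was above 1 TPM in each mouse and below S1pr1 in each.

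The prostaglandin E2 receptors were low or not detected. Ptger4, the EP4 receptor, which couples to Gs and raises cyclic AMP, lies on chr15:5206661-5244187 (minus strand) and had 0, 559, 257 and 19 counts. In TPM these were 0, 7.56, 2.24 and 0.277, so that mouse 2 was highest, mouse 3 next and mouse 1 without a count. Mouse 2 stood 3.38-fold above mouse 3, 27.3-fold above mouse 4 and 295-fold above the floor of 3 counts in mouse 1, which is 0.0257 TPM. That floor is a chosen value, and the 95% exact Poisson interval of mouse 1 reaches 0.0315 TPM. The mean of 2.52 ± 3.50 TPM (SD, n = 4 mice) therefore has an SD larger than itself. The median of 1.26 TPM lay just above the cutoff and fell to 0.277 TPM without mouse 2 or without mouse 3, so the call of Ptger4 rests on these 2 mice. The mean without mouse 2 was 0.838 TPM. Of its exonic bases, 15.3% are shared with Gm15937, a pseudogene on the opposite strand that had no count, and none of these bases lies in the 2 protein-coding transcripts.

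The EP1, EP2 and EP3 receptors were at the limit of detection. Ptger2 (chr14:44988195-45003820, plus strand), which like Ptger4 raises cyclic AMP, had 1, 0, 0 and 0 counts. Ptger3 (chr3:157566892-157645888, plus strand), which lowers cyclic AMP through Gi, had 0, 1, 0 and 0 counts. Ptger1 (chr8:83666678-83672753, plus strand), which raises calcium, had no count in any mouse. The 95% exact Poisson intervals reach at most 0.0687 TPM for Ptger2, in mouse 4, and 0.0881 TPM for Ptger3, in mouse 2. No such limit is given for Ptger1, which is only listed at 0.

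Of the 5 receptors for other prostanoids, Ptgfr, the receptor of prostaglandin F2 alpha, was the only one with a count. It had 34, 1588, 1750 and 316 counts, which gave 0.285, 21.1, 14.9 and 4.51 TPM, and it was higher than Ptger4 in each of the 4 mice. Its order over the mice was that of Ptger4, from mouse 2 to mouse 3, mouse 4 and mouse 1. Ptgdr, Ptgdr2, Ptgir and Tbxa2r had no count in any mouse.

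Both beta-adrenergic receptors were at the limit of detection. Adrb1 (chr19:56722199-56733113, plus strand), the main beta receptor of the heart, had 1, 0, 0 and 0 counts. Adrb3 (chr8:27225776-27250616, minus strand), known from fat and named in the regulation of marrow stroma by sympathetic nerves, had no count in any mouse. At 3 counts, these libraries would have shown Adrb1 from 0.0858 TPM and Adrb3 from 0.0860 TPM in the shallowest library. Of the exonic bases of Adrb3, 24.9% are shared with Gm45470 on the opposite strand, which had no count. Among the 7 other adrenergic receptors none reached a median of 1 TPM. Adra1d, Adra2a and Adra2c had no count, Adra1a had 1 count in 1 mouse, Adra1b had 15 counts in mouse 3 alone, and Adra2b had 0, 0, 1 and 9 counts.

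The order of the receptors was the same in all 4 mice at its upper end. Within a mouse, Pth1r exceeded S1pr3 by 0.99, 0.69, 0.75 and 0.64 on the log2(TPM + 1) scale, on average by 0.77 ± 0.16 (SD, n = 4 mice). As a ratio of TPM, S1pr3 stood at 0.501, 0.617, 0.592 and 0.640 of Pth1r, so that mouse 1 was the one with the widest gap. S1pr3 exceeded S1pr1 by 1.01, 0.70, 0.54 and 0.95, on average by 0.80 ± 0.22. Both differences were larger than their spread between mice. S1pr1 exceeded Ptger4 by 5.01 ± 1.26, in each of the 4 mice. Below Ptger4 the genes are all under 3 counts and were not ordered.

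Differences within a family were tested for 8 pairs by an exact permutation test (two-sided) that flips the sign of the difference in each of the 4 mice, and its smallest possible p is 0.125. S1pr3 was above S1pr1 in 4 of 4 mice with that smallest p (0.125, exact permutation test; 0.50 after Benjamini-Hochberg adjustment over the 8 pairs). Ptger4 was above Ptger1, Ptger2 and Ptger3 in 3 of 4 mice each, by 1.29 ± 1.41, 1.28 ± 1.42 and 1.28 ± 1.40 on the log2(TPM + 1) scale, with an exact permutation p of 0.25 for each (adjusted 0.50). These differences were smaller than their spread between mice. In the other 4 pairs both receptors were under 3 counts, and no difference is given. No pair could pass 0.05 in a design of 4 mice.

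The 9 receptors summed to 509, 425, 629.7 and 297 TPM, on average to 465 ± 140.2 TPM (SD, n = 4 mice). Pth1r took 57.2%, 49.3%, 49.9% and 50.8% of this sum, on average 51.8 ± 3.67% (SD, n = 4 mice). S1pr3 took 30.3 ± 1.64% and S1pr1 17.4 ± 2.64%. Ptger4 took at most 1.78%, in mouse 2. The sum varied more than its division: the share of Pth1r was highest in mouse 1, where the share of S1pr1 was lowest, at 14.2%.

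**Figure D2:**
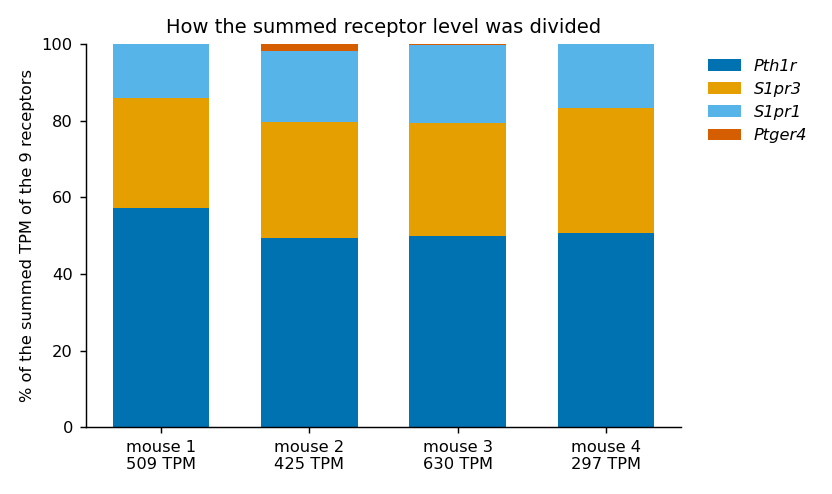
Share of each receptor in the summed TPM of the 9 receptors, one bar per mouse, with the sum written under it. Only the 4 receptors with a visible share are drawn. Pth1r made up between 49.3% and 57.2%, S1pr3 between 28.7% and 32.5%, S1pr1 between 14.2% and 20.3% and Ptger4 between 0 and 1.78%.

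The spread of the abundant receptors between mice was like that of other genes of their level. The coefficient of variation over the 4 mice was 31.2% for Pth1r and 26.7% for S1pr3, where the median of the 828 protein-coding genes with a mean between 100 and 1000 TPM was 24.7%. For S1pr1 it was 40.2%, beside a median of 44.0% over the 4055 genes between 10 and 100 TPM. Ptger4, at 139%, varied more than 82.3% of the 5727 genes between 1 and 10 TPM, whose median was 84.7%. From the mean count of the mice that had any, counting error alone would give a coefficient of 5.99% for Ptger4. Mouse 1, with 0 counts, is left out of this value but not of the 139%. For the other 3 receptors, counting error alone would give between 0.973% and 1.64%.

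**Figure D3:**
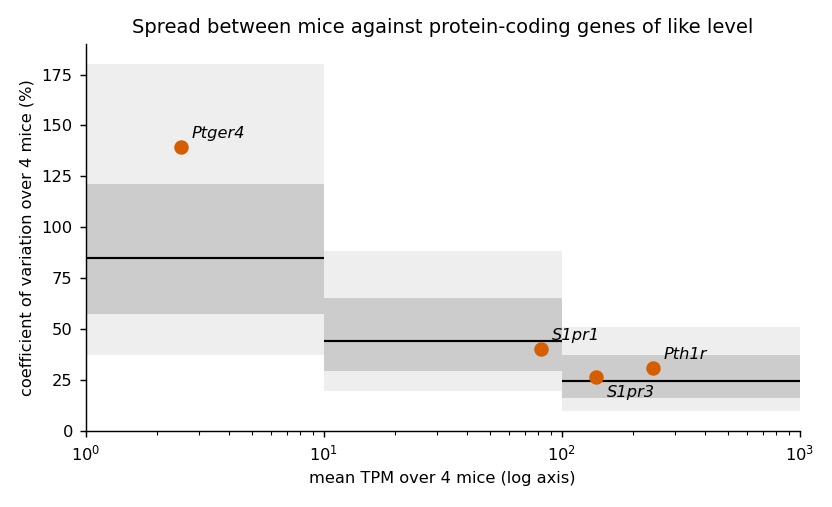
Coefficient of variation over the 4 mice (%) against mean TPM (log axis). Orange points are the 4 receptors past the cutoff, black lines are the medians of protein-coding genes in each band of mean TPM, dark bands span the quartiles of those genes and light bands the 10th to the 90th percentile. Pth1r, S1pr3 and S1pr1 lie within the dark bands, and Ptger4 lies above it at 139%.

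Pth1r, S1pr3 and S1pr1 shared their highest mouse (mouse 3) and their lowest (mouse 4) on the TPM scale. That order was found in 16.3% of the protein-coding genes between 100 and 1000 TPM and in 12.8% of those between 10 and 100 TPM. It depends in part on the scaling. S1pr3 and S1pr1 kept mouse 3 as the highest and mouse 4 as the lowest under all 6 other scalings, whereas Pth1r kept mouse 4 as the lowest under all 6 and mouse 3 as the highest under 4, with mouse 1 highest by 293 against 288 under TMM factors and by 287 against 279.9 under DESeq2 size factors. Of 14 sums of marker genes (osteoblast markers counted with and without Bglap), 3 were likewise highest in mouse 3 and lowest in mouse 4: the osteoblast markers without Bglap (12379, 13808, 22124 and 11294 TPM), the 4 osteocyte markers (1337, 648, 2246 and 491 TPM) and the 5 Schwann cell and nerve markers (42.7, 47.5, 67.2 and 15.5 TPM). These sums are carried by Ibsp, Dmp1 and S100b, and other members differ: Sp7 was highest in mouse 1, Alpl was lowest in mouse 2, and Phex was lowest in mouse 3. Bglap was lowest in mouse 3 and highest in mouse 4. Their part in the levels of the receptors was not tested.

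Ptger4 and Ptgfr followed another order, with mouse 2 highest and mouse 1 lowest. Ptger4 lies in the band of 1 to 10 TPM, and Ptgfr, with a mean of 10.2 TPM, lies outside it. Of the 5727 protein-coding genes in that band, 12.8% had fewer than 3 counts in mouse 1. The order of mice 2, 3, 4, 1 was shared by 4.77% of them. Of the 14 sums of marker genes, 2 had it: the 6 stromal niche markers, with 1052, 4534, 2316 and 1194 TPM, and the 4 adipocyte markers (Adipoq, Lpl, Cebpa, Pparg), with 199, 962, 439 and 234 TPM. The niche sum is carried by Cxcl12, the 1 of the 6 markers with this order. Of the other 5, Lepr, Nes, Foxc1 and Ebf3 were also highest in mouse 2, and Prrx1 was lowest there, with 19.4, 10.6, 18.0 and 12.0 TPM. All 4 adipocyte markers were highest in mouse 2, and Adipoq and Cebpa had the whole order. Pparg, the master regulator of fat cells, had 8, 869, 50 and 0 counts. Tnfsf11, which encodes the osteoclast factor RANKL and was singled out after its values were seen, had 0, 1351, 431 and 3 counts, in the same order. The part of adipocyte-related or niche cells in the level of Ptger4 was not tested.

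**Figure D4:**
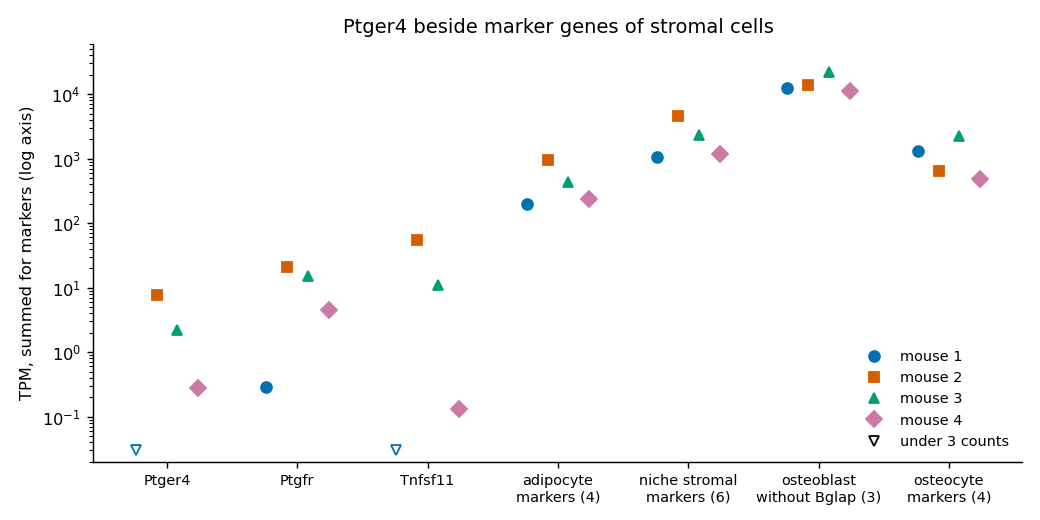
TPM of Ptger4, Ptgfr and Tnfsf11 and the summed TPM of marker genes in each mouse (log axis, number of markers in brackets). Open triangles stand for fewer than 3 counts and are drawn at an arbitrary low position. Mouse 2 was highest and mouse 3 next for the 3 genes and for the adipocyte and niche stromal markers, whereas mouse 3 was highest for the osteoblast markers without Bglap and for the osteocyte markers.

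Genes of the ligands and of ligand metabolism were examined next, 34 in all, of which 23 had a median TPM above 1, 11 were above 1 TPM in each mouse and 6 were under 3 counts in each (Pth, Th, Dbh, Pnmt, Ptgds, Sgpp2). Of the 2 ligands of Pth1r, Pth, the hormone of the parathyroid gland, had no count. Pthlh, its local relative, had 427, 0, 0 and 0 counts, so that a single mouse, with 15.0 TPM, carried it. Catecholamine synthesis was near absent, with Th, Dbh and Pnmt at 0 and Ddc at 0, 0, 1 and 6 counts. Genes of catecholamine removal were present. Slc6a2, the noradrenaline transporter of sympathetic nerve endings, had 15.0, 4.16, 7.45 and 4.74 TPM and was above 1 TPM in each mouse, where Adrb1 and Adrb3 were under 3 counts. Maob, an oxidase of amines, had 0, 54.2, 13.2 and 7.84 TPM, and Slc22a3, an uptake transporter for amines, 4.96, 0, 3.30 and 2.85 TPM.

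Prostaglandin genes were led by 2 enzymes. Ptgis, prostacyclin synthase, had 43298, 11645, 34773 and 16901 counts, or 959, 408, 784 and 637 TPM, while the prostacyclin receptor Ptgir had no count in any mouse. Hpgd, the dehydrogenase that inactivates prostaglandin E2, had 514, 792, 559 and 678 TPM, more than Pth1r in each mouse. Ptgis was lowest and Hpgd highest in mouse 2.

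The steps that make prostaglandin E2 were unevenly present. Pla2g4a, the phospholipase that releases arachidonic acid, had 25.1, 0.858, 10.1 and 8.28 TPM. Of the cyclooxygenases, Ptgs1 had 8.44, 0, 1.01 and 5.93 TPM and Ptgs2, the inducible form, 0.0745, 16.4, 6.75 and 0 TPM. Mice 2 and 3 were the higher pair for Ptgs2 and the lower pair for Ptgs1, and no mouse lacked both. Ptges, the inducible synthase of prostaglandin E2, had 0, 11.5, 1.09 and 1.85 TPM. Ptges3, a synthase that is also a chaperone partner, had 125, 84.2, 113 and 58.2 TPM. Ptger4, Ptgs2 and Ptges shared mouse 2 as their highest and were each at or near 0 in mouse 1.

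Of the 11 genes of S1P metabolism and transport, 9 had a median above 1 TPM and 6 were above 1 TPM in each mouse. Sphk1, a kinase that makes S1P, had 51.7, 20.6, 44.8 and 24.1 TPM, and Sphk2, the second kinase, 6.08, 0, 6.76 and 2.19 TPM. Spns2, which exports S1P, had 27.7, 24.3, 22.3 and 27.6 TPM, with little difference between mice. Mfsd2b, the exporter known from red cells and platelets, had 6.29, 0.0698, 2.35 and 1.26 TPM, and its order over the mice (1, 3, 4, 2) was that of the red cell markers, whose part in it was not tested. Plpp3, a surface phosphatase that breaks down S1P, had 32.8, 311, 51.4 and 62.7 TPM, with mouse 2 far above the other 3. Plpp1, a related phosphatase, had 14.8, 19.6, 40.4 and 70.7 TPM. Sgpl1, the lyase that degrades S1P for good, had 4.10, 11.0, 9.01 and 2.87 TPM.

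**Figure D5:**
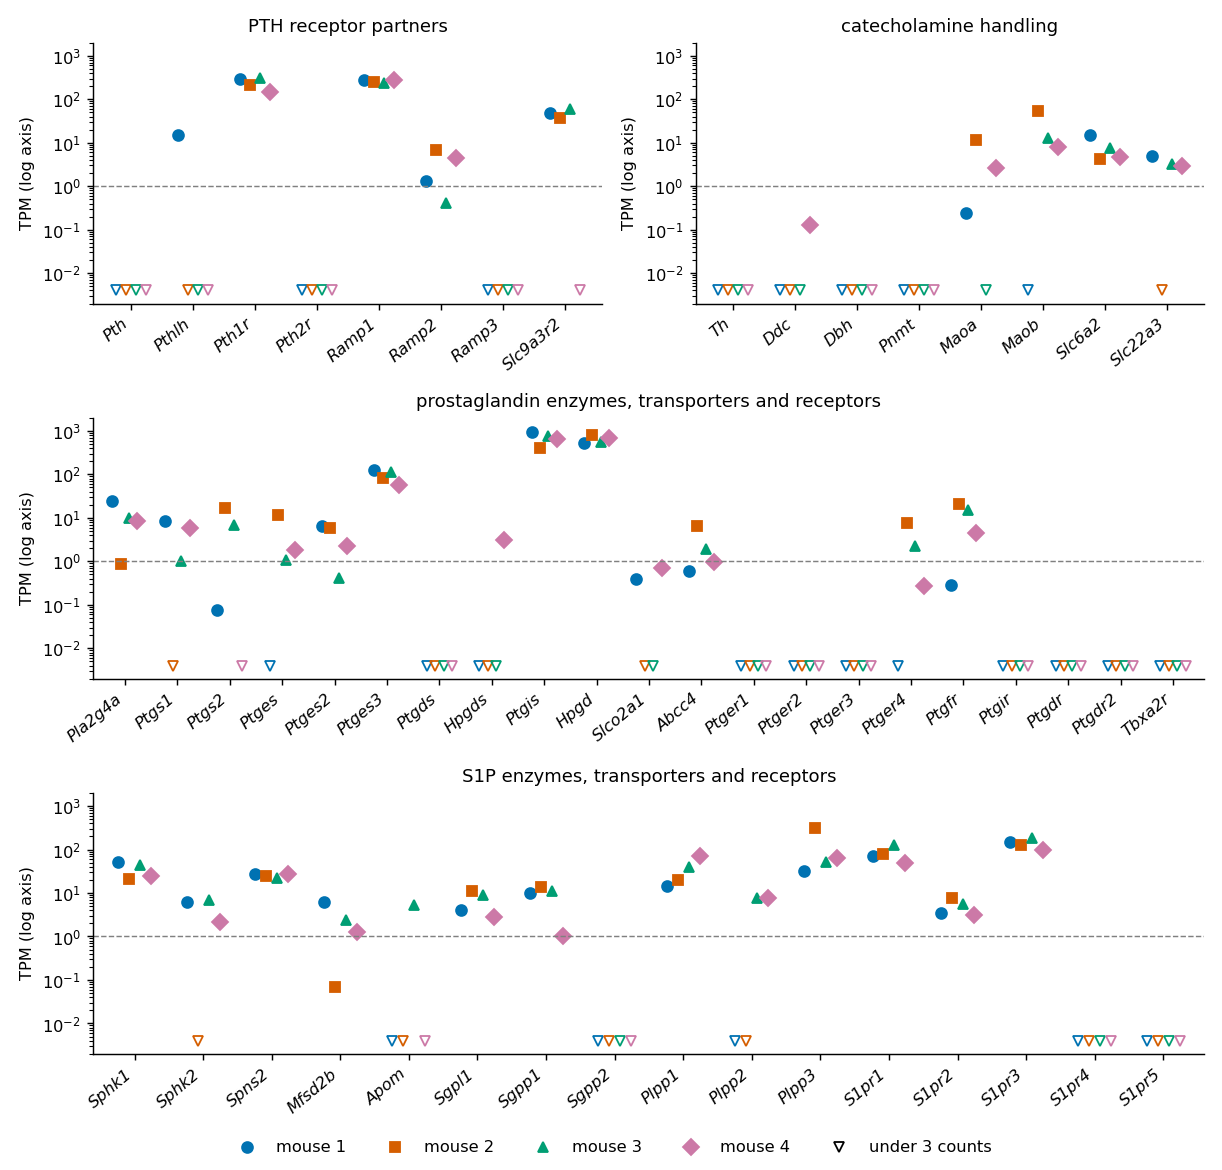
TPM in each mouse (log axis) of genes that make, remove, transport or bind the signals of the 4 receptor families. Filled symbols are mice with at least 3 counts, open triangles stand for fewer than 3 counts and are drawn at an arbitrary low position, and the dashed line is the cutoff of 1 TPM. Ptgis and Hpgd lie between 408 and 959 TPM while Ptgir is under 3 counts in each mouse, and Spns2, S1pr1 and S1pr3 are all above 20 TPM in each mouse. Slc9a3r2 encodes NHERF2.

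Of 52 genes of G proteins, effectors and regulators, 30 had a median TPM above 1, 19 were above 1 TPM in each mouse and 7 were under 3 counts in each (Gnal, Gna14, Adcy5, Adcy8, Plcb2, Ramp3, Pde3a). The 3 highest were Ramp1, Prkar1a and Gnai1. Ramp1, a single-span protein that assists receptors of the family of Pth1r, had 272, 243, 232 and 272 TPM, close to the level of Pth1r and with a smaller spread between mice. Ramp2 had 1.34, 6.73, 0.421 and 4.46 TPM and Ramp3 no count. Slc9a3r2, which encodes the scaffold NHERF2 that binds the tail of Pth1r, had 49.2, 37.4, 59.7 and 0 TPM. It was thus without a count in mouse 4, the mouse with the lowest Pth1r.

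The G protein subunits that the receptors use differed in level. The 3 Gi subunits, engaged by S1pr1 and S1pr3, were all present in each mouse. Gnai1 had 88.7, 71.8, 27.6 and 69.9 TPM, Gnai2 had 37.7, 58.3, 84.0 and 68.1 TPM, and Gnai3 had 71.3, 52.4, 78.5 and 61.2 TPM. For the Gq class, Gna11 had 30.6, 32.3, 48.7 and 14.4 TPM, with the highest and lowest mouse of S1pr1 and S1pr3, and Gnaq had 6.25, 18.9, 5.16 and 4.10 TPM. For G12/13, Gna13 had 8.37, 1.79, 9.39 and 23.4 TPM and Gna12 had 49.0, 0, 4.88 and 2.04 TPM. Gnas, the Gs subunit through which Pth1r, Ptger4 and the beta receptors act, was listed at 4.34, 2.38, 3.32 and 4.53 TPM. This level cannot be read as that of the gene, because exons of Gm20721 on the opposite strand cover up to 85.4% of the bases of its transcripts and read pairs on both are left uncounted by the counting tool's default.

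Downstream of Gs, 4 of 9 adenylyl cyclases had a median above 1 TPM. Adcy2 had 4.58, 35.9, 5.30 and 0.414 TPM, which holds the highest value of the 9 in any mouse, and Adcy3 had 3.81, 4.29, 8.34 and 1.08 TPM. All 6 subunits of protein kinase A passed the cutoff, led by the regulatory subunit Prkar1a with 159, 161, 241 and 136 TPM. Among the 7 receptor kinases and arrestins, which switch off active receptors, Grk2 was highest with 11.7, 4.20, 12.5 and 3.09 TPM, and Arrb2 had 70 counts in mouse 4 and none in the others.

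Genes known to answer cyclic AMP or parathyroid hormone were counted as a list of 21, of which 16 had a median TPM above 1 and 9 were above 1 TPM in each mouse. The 3 highest were Fos, Mmp13 and Nr4a1. Fos, an immediate early gene, had 1104, 1897, 2216 and 1258 TPM. Mmp13, a collagenase of bone, had 502, 1927, 2298 and 669.8 TPM. Nr4a1, a nuclear receptor induced within minutes, had 32.6, 14.4, 71.9 and 30.6 TPM. All 3 were highest in mouse 3, as was Pth1r, but not lowest in mouse 4. Sost, an osteocyte gene that parathyroid hormone lowers, and Areg had no count in any mouse. With no stimulated or unstimulated group, these levels do not say whether a receptor was active.

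The protein-coding genes closest in level to each abundant receptor were found by the root mean square difference in log2(TPM + 1) over the 4 mice, among 15465 genes. For Pth1r these were Spcs2 (0.10), Yif1b (0.11), Itm2c (0.14), Rpn1 (0.17) and Skp1 (0.17). For S1pr3 they included Eif1b (0.06), Myl12a (0.08), Mdh1 (0.13) and Ppp2r1a (0.14). For S1pr1 they were Abhd14a (0.17), Psmd4 (0.19), Pqbp1 (0.20), Polr2j (0.21) and Enpp6 (0.22). A likeness over 4 mice describes these libraries and shares their depth and scaling.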

How the data were processed

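The authors made 1 RNA-seq library per mouse from 100 sorted MSCs with an oligo-dT, template-switching protocol, aligned read pairs to GRCm39 (STAR 2.7.10 in the submitters' processing notes) and used featureCounts (Subread 1.6.5) to count the pairs that mapped uniquely to exons. They deposited raw counts per Ensembl gene, not normalized, with no replicates pooled. No strand option is given, so counting was taken as unstranded. Columns were joined to mice by their sample code.

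From these counts, TPM was computed in Python 3.11.15 (pandas 2.3.3, numpy 2.4.6, scipy 1.17.1) with merged exon lengths of GENCODE M21 on GRCm38, so a gene whose exons differ between the builds has a TPM off by the ratio of lengths. Of 56980 genes, 4855 had no length and were left out of the TPM, with between 1.85% and 3.86% of counts. Coordinates are those of GRCm38, and none was converted. With 22738604 to 43545349 counts in a library, the floor of 3 counts equals 0.0689 to 0.132 CPM. Floors and 95% Poisson intervals describe counting alone, because reads copied by PCR are not independent molecules.

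The cutoff was a median TPM above 1, after the study's methods. Pairs of receptors were compared within each mouse by their difference in log2(TPM + 1), with a two-sided exact permutation test by sign flips and Benjamini-Hochberg adjustment over 8 pairs. The 4 libraries come from 4 animals. Scaling factors came from edgeR 4.0.16 and DESeq2 1.42.0 in R 4.3.3, and copies were searched with BLAST 2.17.0. Promoter windows are those of RefSeq on GRCm38.p6. Coding sequences were used where a comparison of proteins had been planned. TPM and permutation code was tested on simulated data. The receptors, gene lists, comparisons and alternatives were chosen with earlier results of these data known. Named are all 9 receptors, of each list the 3 highest genes, those under 3 counts in every mouse, and partners of a receptor. Some items that this rule names are not reported here. Other genes named were chosen after their values were seen. Of the listed symbols, Nherf1 was not matched, and Nherf2 was matched by synonym to Slc9a3r2. Macrophage libraries were not analysed here.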

Additional observations from a re-analysis of the deposited data

Results flagged for a closer look

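Of 69 values that were checked over the 4 mice, 11 had 1 mouse so far from the others that its gap to the nearest mouse took more of the range than Dixon's test allows at 4 samples. Chance alone flags about 1 in 20 groups, or 3.45 of 69, and a gene with counts in a single mouse is always flagged. None of the 4 receptors checked (Pth1r, S1pr3, S1pr1, Ptger4) was among them.

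In mouse 1, Pthlh was alone with 15.0 TPM (gap 1.0 of the range), Gna12 stood at 49.0 TPM against at most 4.88 TPM (gap 0.90), and the megakaryocyte markers summed to 7.95 TPM against at most 0.267 TPM (gap 0.966). The chondrocyte markers summed to 352 TPM in mouse 1 and to between 219 and 229 TPM in the others (gap 0.926). Col11a2 carried this sum, with 345, 228, 214 and 218 TPM in mice 1, 2, 3 and 4. Acan and Matn3 were also highest in mouse 1, at 2.64 and 2.41 TPM, whereas Col9a1 was highest in mouse 3, at 12.2 TPM. In mouse 2, Ptges stood at 11.5 TPM (gap 0.84), Plpp3 at 311 TPM (gap 0.893), Gnaq at 18.9 TPM (gap 0.854) and Adcy2 at 35.9 TPM (gap 0.862). In mouse 3, the macrophage markers summed to 16.1 TPM against at most 1.01 TPM (gap 0.952), through C1qb and Cd68, while Adgre1, Csf1r and C1qa were at 0. In mouse 4, Arrb2 was alone with 2.38 TPM (gap 1.0) and the lymphocyte markers summed to 1.46 TPM through Cd79a against 0 in the others (gap 1.0).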

How the results depend on the processing

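Levels rest on 4 libraries of 100 cells, on exon lengths of GRCm38 for counts made on GRCm39, and on counting without strand. The number of receptors past the cutoff stayed between 3 and 4 in all 15 alternatives, and Pth1r, S1pr3 and S1pr1 passed in each. Ptger4 was lost without mouse 2, without mouse 3, at a cutoff of 5 TPM, when each mouse had to exceed 1 TPM, and when each mouse needed 10 counts. The share of Pth1r was 51.8%, rose to 57.4% with the longest transcript as length, fell to 44.2% of CPM with no length, and lay between 50.0% and 52.6% when 1 mouse was left out. Without the 10 highest genes in the denominator, the means were 376 TPM for Pth1r, 218 for S1pr3 and 128 for S1pr1. Of 173 values recomputed, 7 levels or shares moved by more than their SD between mice. Only the differences between 2 receptors have a direction, and 0 of these reversed.

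The difference S1pr3 minus S1pr1 on the log2(TPM + 1) scale lay between 0.73 and 0.89 when 1 mouse was left out and reached 1.35 with no length. Leaving out 1 mouse moved Ptger4 minus Ptger1, Ptger2 and Ptger3 between 0.68 and 1.71, and a pseudocount of 0.1 raised them to between 3.13 and 3.18. The main test pairs 2 genes within a mouse. With no such block the differences were the same (0.80 for S1pr3 and S1pr1), with an exact permutation p of 0.0571, and 1.29, 1.28 and 1.28 for Ptger4, with 0.143 for each. The paired test cannot go below 0.125 with 4 mice, so it could make no call, and the absence of a change says nothing of stability.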
